A study of Rattus norvegicus with 6 samples.

Results

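The genes described here are 10 members of the Bcl2 family, which controls the mitochondrial route of apoptosis: Bcl2, Bcl2l1, Mcl1, Bax, Bak1, Bid, Bad, Bbc3, Pmaip1 and Bcl2l11. They were taken as the array probes whose RefSeq transcript belongs to 1 of these genes, and all 10 had a probe. The array holds 26903 names, counted as all genes in what follows, of which 15154 are gene symbols and 11749 are identifiers of the array design that matched no symbol. Ovaries of Wistar rats were collected on postnatal day (PND) 7 after intraperitoneal injections on PNDs 3 and 5. The LPS group received 0.05 mg/kg of lipopolysaccharide from Salmonella, a bacterial cell wall component that activates innate immunity, and the saline group received the same volume of saline. RNA of whole ovaries was hybridized to 6 single-colour arrays, with 3 for each treatment. The comparison asks whether neonatal LPS changed the ovarian transcript levels of these genes 2 days after the second injection. Whole litters were allocated to a treatment, and the methods describe fewer litters than arrays for each treatment without tying an array to single animals or litters. The 3 arrays of a group therefore do not stand for separate litters, and p-values measure the spread between these arrays only.

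Proteins of this family act at the outer mitochondrial membrane. Anti-apoptotic members bind and restrain the effectors Bax and Bak1, which otherwise form pores that release cytochrome c, and the BH3-only members relay stress signals by binding to either kind. In the ovary the balance between these proteins is known for its part in the loss of germ cells and follicles. Much of that control lies in protein binding, location and turnover, which arrays do not measure.

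Signals are given as log2 of the processed signal after subtraction of the same array's 75th percentile, so that a level of 0 equals that percentile. The unscaled percentile was 3389, 4114 and 5497 intensity units on LPS arrays 1, 2 and 3, and 2379, 4614 and 3199 on saline arrays 1, 2 and 3. Between 66.3% and 76.0% of the spots on an array were well above background, as judged by the scanner software, and no spot was saturated. With so few arrays per treatment, the precision of each value is limited by their number.

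Markers of the ovary were present on every array. Of 12 oocyte markers 9 had a probe and all 9 were well above background on all 6 arrays, with Zp3, a protein of the egg coat, as the brightest. Their summed signal, in units of the 75th percentile, was 17.1, 47.4 and 38.8 on LPS arrays 1 to 3 and 23.0, 20.2 and 34.1 on saline arrays 1 to 3. Of 10 granulosa cell markers 8 had a probe, Inha being the brightest, and their sums were 21.2, 73.1 and 49.9 in LPS and 34.2, 34.6 and 59.6 in saline. For both lists LPS array 1 was the lowest of the 6 and LPS array 2 the highest, so the groups overlapped. LPS minus saline of single oocyte markers ran from 0.21 to 0.75 with a median of 0.43. It was positive for 9 of 9, beside 8646 of 16295 genes well above background on all arrays and 11884 of 26903 in all. By limma 0 of the 9 had an unadjusted p under 0.05, beside 4.06% of genes well above background on all arrays. For granulosa markers 6 of 8 were positive, with a median of 0.33. These medians turned to -0.36 and -0.74 within the slide row that held both groups, where LPS array 1 stands alone. Leaving out single arrays gave medians of 0.25 to 0.82 for oocyte markers and -0.036 to 0.68 for granulosa markers. Without LPS array 1, 6 of the 9 oocyte markers had an unadjusted p under 0.05 by limma. The share was 22% of all genes and 7.38% of those well above background on all arrays. A 2-fold difference with it was passed by 3 of these 9, and over all genes by 260 as higher and 524 as lower.

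Saline arrays 2 and 3 stood apart by transcripts of the adrenal gland. The 9 adrenal cortex markers with a probe, led by Hsd3b1, summed to 318 and 410.2 on these arrays, against 6.43 on saline array 1 and 5.39, 16.9 and 13.4 on the LPS arrays. The 9 adrenal medulla markers with a probe, led by Pnmt, summed to 86.8 and 56.3 on saline arrays 2 and 3, 5.97 on saline array 1, and 5.55, 3.65 and 3.15 on the LPS arrays. On the other 4 arrays, 3 of the cortex markers and 4 of the medulla markers were well above background nowhere. The part of adrenal RNA in the values below was not tested, and results are therefore also given without these arrays, where saline array 1 stands alone and is assumed to vary like the LPS arrays.

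**Figure D1:**
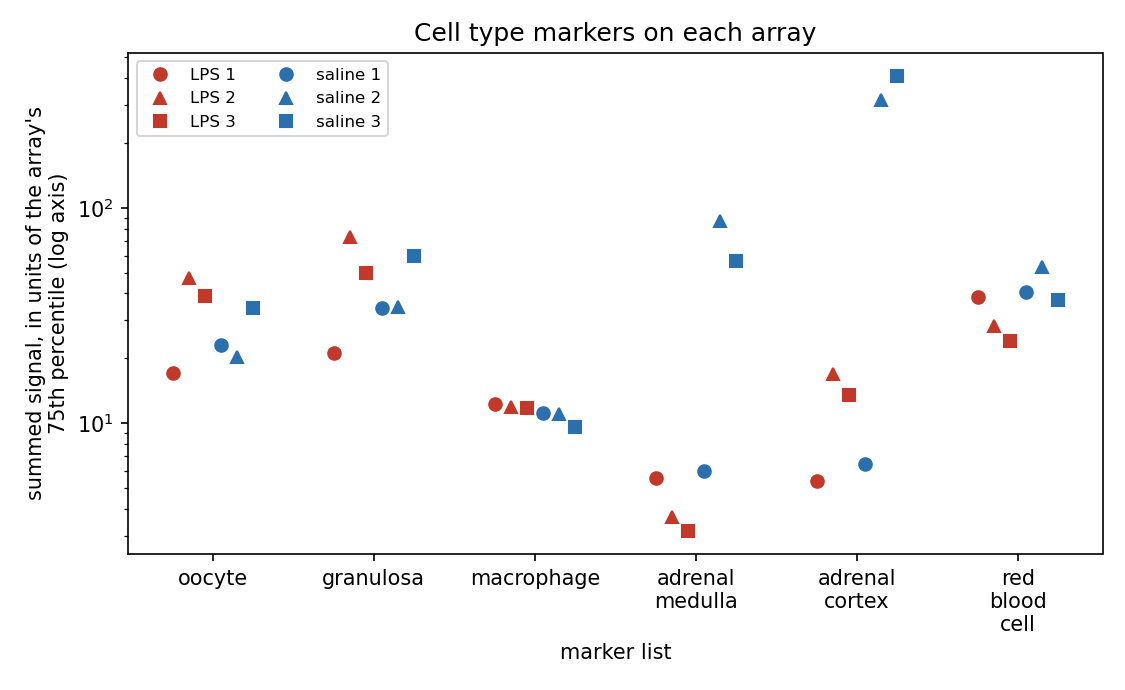
Summed signal of each marker list on each array, in units of the array's 75th percentile on a log axis, with LPS in red, saline in blue and the replicate number given by the shape. Adrenal medulla and cortex markers on saline arrays 2 and 3 lie above all other arrays, with cortex sums of 318 and 410.2, while oocyte and granulosa sums of the groups overlap.

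No Bcl2 family member passed the criterion of a 2-fold difference with an unadjusted p under 0.05. By this criterion 0 of 10 members were higher in LPS, beside 0.539% of all genes, and 0 of 10 were lower, beside 1.03% of all genes. Among the 15154 symbols, 90 were higher and 177 lower. At an adjusted p under 0.05 by limma 0 members were called, as were 0% of all genes, and the lowest adjusted p of any probe was 0.271. Without saline array 1 limma called 247 genes and 0 members at that threshold. That setting leaves saline arrays 2 and 3 only, and 9 of 9 adrenal cortex and 9 of 9 adrenal medulla markers passed the 2-fold criterion in it. With all arrays kept and no limit on the fold, limma gave 2 of 10 members at an unadjusted p under 0.05, beside 15.9% of all genes. These were Bcl2 and Pmaip1, and a test on each probe's own spread gave 1 member, beside 12.5%. Both of these genes were below the level at which the array measures, as described further on. With 3 arrays against 3 the exact two-sided permutation test cannot give a p under 0.1.

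Of the 10 members 7 were well above background on all 6 arrays, namely Bcl2l1, Mcl1, Bax, Bak1, Bid, Bad and Bbc3, and 3 were on none, namely Bcl2, Pmaip1 and Bcl2l11. Among the 7, LPS minus saline ran from -0.08 for Bad to 0.46 for Bid, with a median of 0.11. The median was 0.02 over the 16295 genes well above background on all arrays. In 0 of the 7 were all LPS arrays above all saline arrays, beside 5.3% of such genes, and in 0 of the 7 were all LPS arrays below, beside 5.88%. An unadjusted p under 0.05 by limma was reached by 0 of the 7 with their brightest probes, beside 4.06% of such genes. Over the 20 alternatives Bid reached it under 2, and the other measured members under 0. The 95% interval of the difference lay within 2-fold in either direction for 6 of the 7, Bid being the exception, beside 78.4% of such genes. Arrays with the same number tended to depart together from their group means, and within such pairs LPS was higher in all 3 pairs for 2 of the 7, Mcl1 and Bid, beside 16.7% of such genes, and lower in all 3 for 0, beside 15.8%. In whole ovaries fewer cells of a type and less RNA per cell cannot be told apart.

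**Figure D2:**
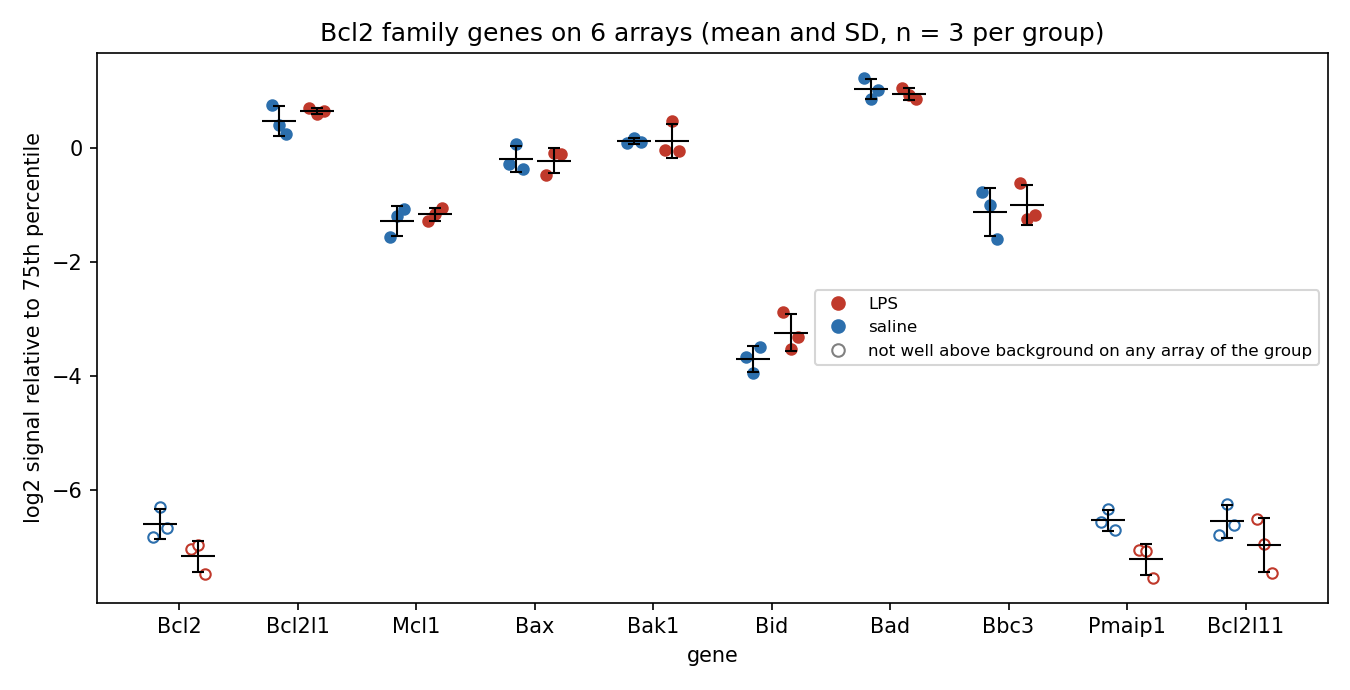
Log2 signal relative to the array's 75th percentile for the brightest probe of each of the 10 genes, as points for single arrays (saline in blue, LPS in red) with the mean and SD of 3 arrays as bars. Filled points of the groups overlap for all 7 measured genes, and open points mark Bcl2, Pmaip1 and Bcl2l11, which were well above background on no array.

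Among the anti-apoptotic genes, Bcl2l1 encodes Bcl-x, whose long form protects cells from mitochondrial apoptosis. Its brightest probe, A_64_P054735 for the transcript NM_001033670, read 0.70, 0.58 and 0.63 on LPS arrays 1 to 3 and 0.74, 0.40 and 0.23 on saline arrays 1 to 3. The highest and the lowest values both belonged to saline arrays, so the LPS arrays lay within the saline range. The means were 0.64 ± 0.06 in LPS and 0.46 ± 0.26 in saline (SD, n = 3 each), a difference of 0.18 with a 95% interval from -0.27 to 0.63 and an adjusted p of 0.804 by limma. Without saline arrays 2 and 3 the sign turned, to -0.11.

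A probe that the array design assigns to another Bcl2l1 transcript gave the largest difference among the probes of measured members. Probe A_44_P548065, for NM_031535, read -2.47, -2.80 and -2.85 on LPS arrays 1 to 3 and -3.02, -3.45 and -3.37 on saline arrays 1 to 3. All LPS arrays were above all saline arrays, and array 1 was the highest of its group in both treatments. The means were -2.71 ± 0.21 in LPS and -3.28 ± 0.23 in saline (SD, n = 3 each), and the difference of 0.58 (SE 0.20) stayed below 2-fold, with an adjusted p of 0.273 by limma. The unadjusted p was 0.0260 by limma. By limma or by the test on each probe's own spread it was under 0.05 in 11 of the 19 alternatives that give this probe a value. It rested on a single spot per array, and the Bcl2l1 probes are named by the transcript given in the files, without a comparison of their sequences, so their values are not assigned to splice forms here. Without saline arrays 2 and 3 the difference was 0.31, and with no background correction it was 0.12.

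The remaining probes of Bcl2l1 did not show that separation. A_64_P008047, which carries the same transcript name as the brightest probe, differed by 0.18 with overlapping groups. A_64_P054730, for NM_001033672, was well above background on 3 LPS and 2 saline arrays and read from -4.87 to -3.43 in LPS and from -4.70 to -3.72 in saline. Its difference of 0.12 had an SE of 0.42. Thus 1 of 4 probes had groups that did not overlap, and it was not the brightest.

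**Figure D3:**
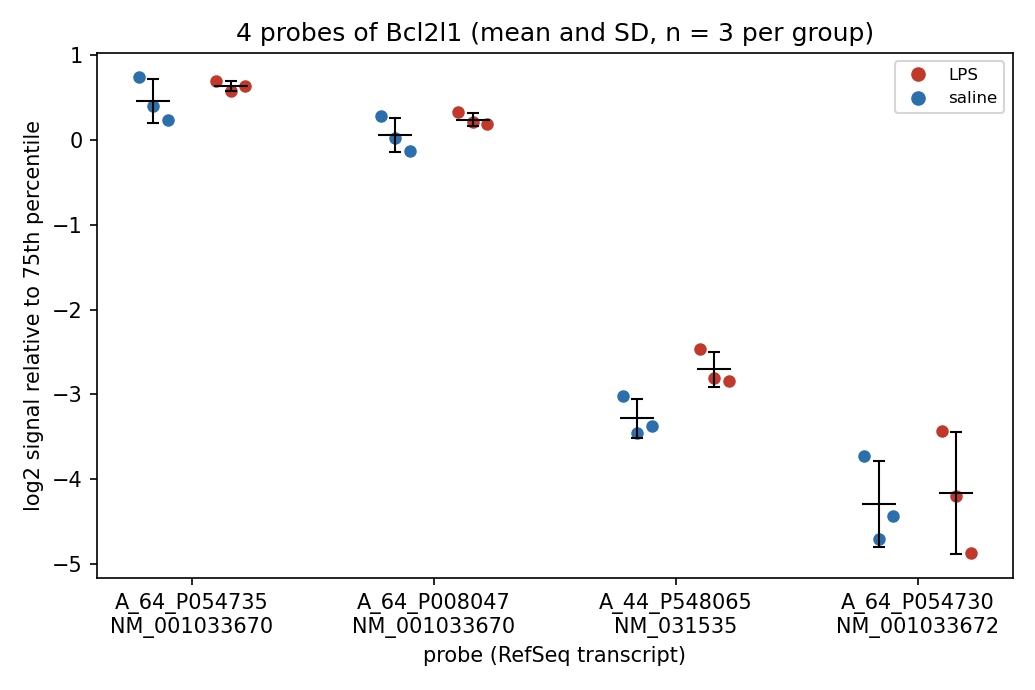
Log2 signal relative to the array's 75th percentile for the 4 probes of Bcl2l1, named with their RefSeq transcripts, as points for single arrays with the mean and SD of 3 arrays as bars. The groups are separate for A_44_P548065, with means of -2.71 in LPS and -3.28 in saline, and overlap for the other probes.

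Mcl1 encodes a short-lived anti-apoptotic protein. Its level was -1.29, -1.16 and -1.05 on LPS arrays 1 to 3 and -1.57, -1.19 and -1.07 on saline arrays 1 to 3. Array 1 was the lowest of its group in both treatments, and the groups overlapped. The difference was 0.11 with a 95% interval from -0.36 to 0.58 and an adjusted p of 0.919 by limma. The value was 0.41 without saline arrays 2 and 3.

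Bcl2 itself, the founding anti-apoptotic member, was well above background on no array. The unscaled signal of its probe was 25.9, 33.0 and 31.1 intensity units on LPS arrays 1 to 3 and 21.1, 58.8 and 31.7 on saline arrays 1 to 3. On the same arrays the dimmest probe well above background read 62.8, 69.5 and 64.4 in LPS and 53.8, 124.0 and 67.5 in saline. The unscaled values overlapped between the groups. After scaling, all LPS arrays were below all saline arrays, with means of -7.15 and -6.59, but no fold change can be given when both groups are below background.

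The effectors did not differ between the treatments beyond the spread of the arrays. Bax was measured by 10 spots per array and read -0.49, -0.10 and -0.11 on LPS arrays 1 to 3 and -0.28, 0.06 and -0.38 on saline arrays 1 to 3. The groups overlapped, and the lowest value was LPS array 1 and the highest saline array 2. The SD of the 10 spots within an array was between 0.03 and 0.05, while the SD between arrays was 0.22 in LPS and 0.23 in saline, so the spread lay between arrays and not between spots. The difference was -0.03 with a 95% interval from -0.52 to 0.46 and an adjusted p of 0.991 by limma.

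Bak1, which forms mitochondrial pores alongside Bax, read -0.05, 0.46 and -0.06 on LPS arrays 1 to 3 and 0.07, 0.16 and 0.10 on saline arrays 1 to 3. LPS arrays lay on both sides of the saline arrays, which had an SD of 0.05 against 0.30 in LPS. The difference was 0.01 with a 95% interval from -0.47 to 0.49 and an adjusted p of 0.998 by limma. For both effectors the sign of so small a difference changed with the scaling or with the arrays used.

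Among the BH3-only genes Bid had the largest difference of the brightest probes of measured members. Bid links death receptors to mitochondria once caspase 8 has cleaved its protein. It read -2.88, -3.52 and -3.32 on LPS arrays 1 to 3 and -3.66, -3.94 and -3.49 on saline arrays 1 to 3. LPS arrays 1 and 3 were above all saline arrays, while LPS array 2 lay below saline array 3, so the groups overlapped when arrays were compared without regard to their number. Between arrays of the same number, LPS minus saline was 0.78, 0.42 and 0.17 for numbers 1 to 3. The means were -3.24 ± 0.32 in LPS and -3.70 ± 0.23 in saline (SD, n = 3 each), a difference of 0.46 (SE 0.23) with a 95% interval from -0.09 to 1.01 and an adjusted p of 0.391 by limma. Its sign was positive under every alternative tried, from 0.05 with no background correction to 0.83 with no normalization between arrays, and without saline arrays 2 and 3 it was 0.42. Of the 20 alternatives 2 brought its unadjusted p by limma under 0.05, to 0.0477 with no normalization and to 0.0254 with slide row as a block. The latter sets LPS array 1 alone against the saline arrays, with a difference of 0.81. The same contrast within the shared row had an unadjusted p of 0.0501, the replicate block 0.0572 and limma with an intensity trend 0.131.

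Bad, whose protein binds Bcl2 and Bcl-x when growth factor signaling is withdrawn, read 1.05, 0.92 and 0.85 on LPS arrays 1 to 3 and 1.22, 0.85 and 1.00 on saline arrays 1 to 3. The LPS values lay inside the saline range or at its lower edge, with a difference of -0.08 and an adjusted p of 0.940 by limma. Bbc3, which encodes the p53 target Puma, read -0.61, -1.24 and -1.17 on LPS arrays 1 to 3 and -0.77, -1.01 and -1.60 on saline arrays 1 to 3. It had the widest spread of the 7 measured genes, with an SD of 0.35 in LPS and 0.42 in saline, and overlapping groups. Its difference was 0.12 with a 95% interval from -0.57 to 0.80 and an adjusted p of 0.957 by limma.

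Pmaip1, which encodes Noxa, and Bcl2l11, which encodes Bim, were well above background on no array, as was Bcl2. Unscaled, Pmaip1 read 25.8, 30.8 and 29.8 intensity units on LPS arrays 1 to 3 and 25.5, 57.2 and 30.9 on saline arrays 1 to 3. Bcl2l11 read 37.4, 33.8 and 31.5 in LPS and 21.6, 61.4 and 32.7 in saline. In all 3 genes saline array 2 was the brightest before scaling, and the unscaled groups overlapped.

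After scaling, Bcl2 and Pmaip1 were lower on every LPS array than on any saline array, which made 2 of the 3 unmeasured members. The same held for 57.6% of the 6587 genes that were well above background on no array, so the count of members was close to that of all such genes. The median of LPS minus saline over those genes was -0.57, beside fitted values of -0.56 for Bcl2, -0.68 for Pmaip1 and -0.42 for Bcl2l11. These are differences between scaled background readings and give no fold change of the transcripts.

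The difference between Bax and Bcl2 within each array, relative to the saline mean, was 0.15, 0.47 and 0.97 on LPS arrays 1 to 3 and 0.14, -0.03 and -0.11 on saline arrays 1 to 3. All LPS arrays were above all saline arrays, by a narrow margin for LPS array 1, with a mean of 0.53 in LPS. Since Bcl2 was not measured above background, this value does not describe the balance of the transcripts. It was -0.01 with normexp background correction, 0.04 with no background correction and -0.06 with quantile normalization.

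Bcl2l1 and Mcl1 took the place of Bcl2 in a comparison added after the Bcl2 signal had been seen. Bax minus Bcl2l1 was -0.53, -0.03 and -0.08 on LPS arrays 1 to 3 and -0.37, 0.32 and 0.05 on saline arrays 1 to 3. The groups overlapped, with an LPS mean of -0.21 beside SDs of 0.27 in LPS and 0.35 in saline. Without saline arrays 2 and 3 it was 0.15, and with slide row as a block or within the shared row it was -0.53. Bax minus Mcl1 had an LPS mean of -0.15, also with overlapping groups, and without those saline arrays it was -0.36. Leaving out single arrays gave -0.40 to -0.053 for the former and -0.34 to -0.039 for the latter. Such a difference shows unequal change only and does not set the level of one gene against another.

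Without saline arrays 2 and 3, the 7 measured members ran from -0.28 for Bad to 0.42 for Bid with a median of 0.05, and 0 passed the 2-fold criterion. The sign turned for Bcl2l1, Bax and Bbc3. The median over all genes moved to -0.16 from -0.04. The arrays shared 1 slide and 1 scan, but LPS arrays 2 and 3 lay in a slide row with no saline array. Within the row that held both groups, which leaves LPS array 1 against the 3 saline arrays, the 7 members ran from -0.29 for Bax to 0.81 for Bid, and 0 passed the criterion.

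The wider apoptosis pathway was described with 4 lists of 52 genes, of which 48 had a probe. In these 1 of 48 genes was higher in LPS by the 2-fold criterion, beside 0.539% of all genes, and 0 were lower, beside 1.03%, and limma gave 0 at an adjusted p under 0.05 and 7 of 48 at an unadjusted p under 0.05, beside 15.9% of all genes. Of these 7, named after their values were seen, 4 were well above background on no array, namely Bcl2a1, Faslg, Tnfsf10 and Atm, so that their calls rest on scaled background readings. Calls at this threshold made up 48.9% of the genes well above background on no array. The others were Fadd, Cflar and Aifm1, of which Cflar was not called with the replicate block (unadjusted p of 0.0546 by limma). The median of LPS minus saline was -0.02 over the 48 genes and -0.04 over all genes. Among the 37 genes well above background on all arrays, the groups were separate with LPS higher in 2, beside 5.3% of such genes, and with LPS lower in 4, beside 5.88%.

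The gene past the criterion was Fadd, the adaptor that couples death receptors to caspase 8. It read -4.87, -4.55 and -4.87 on LPS arrays 1 to 3 and -6.71, -6.36 and -4.96 on saline arrays 1 to 3. All LPS arrays were above all saline arrays, although saline array 3 came close to them. Fadd was well above background on the 3 LPS arrays and on no saline array, with an adjusted p of 0.276 by limma. Its fold was therefore given as a bound, 1.37-fold higher in LPS. This bound sets the LPS mean against the higher, on each saline array, of the gene's own signal and the dimmest probe well above background. That dimmest probe is no strict limit, since on saline array 3 it read 67.5 intensity units and Fadd 102.9. The bound also leaves out the spread between arrays. The limma interval of the difference ran from 0.18 to 2.31 on the log2 scale. Leaving out LPS array 2, LPS array 3, saline array 1 or saline array 2 brought the count of pathway genes past the criterion to 0. So did normexp, no background correction, quantile normalization and the test on each probe's own spread.

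Cflar, which encodes the caspase 8 inhibitor c-FLIP, had the largest difference among the pathway genes named here that were measured on all arrays. Its brightest probe read -1.93, -2.30 and -2.41 on LPS arrays 1 to 3 and -3.03, -2.85 and -2.55 on saline arrays 1 to 3. The groups did not overlap, and the same was true of its other probe, which differed by 0.63. The difference of the brightest probe was 0.60 (SE 0.22), below 2-fold, with an adjusted p of 0.276 by limma. Without saline arrays 2 and 3 it was 0.81, with normexp background correction 0.35 and with no background correction 0.23. Its unadjusted p, by limma or by the test on each probe's own spread, was under 0.05 in 13 of the 20 alternatives. With the replicate block the unadjusted p was 0.0546 by limma. Both Fadd and Cflar stand in gene lists that the study drew from these same samples, so their direction here is not independent evidence. Of the other death receptor genes, Tnfrsf1a differed by -0.37 with overlapping groups, and Tradd by -0.34 with all LPS arrays below all saline arrays.

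On the mitochondrial list 0 of 17 genes passed the criterion by their brightest probe, beside 1, Aifm1, at an unadjusted p under 0.05 by limma. Aifm1, a flavoprotein of the mitochondrial intermembrane space, differed by -0.49 (SE 0.20), with all LPS arrays below all saline arrays and an adjusted p of 0.290 by limma, and without saline arrays 2 and 3 the difference was -0.27. Its unadjusted p, by limma or by the test on each probe's own spread, was under 0.05 in 11 of the 20 alternatives. That call was lost, among others, with slide row as a block, with no normalization, where the difference was -0.12, and on leaving out any single array other than saline array 1. Htra2 differed by -0.36 and Birc3, an inhibitor of apoptosis protein, by 0.39, both with overlapping groups. Their differences were 0.11 and 0.73 without those saline arrays, and that of Birc3 was 0.10 with no background correction. Apaf1, the scaffold of the apoptosome, is named after its values were seen because its probes disagreed. Its brightest probe differed by 0.07. A dimmer probe, well above background on the 3 LPS arrays and no saline array, passed the 2-fold criterion, with an adjusted p of 0.271 by limma. The bound of this dimmer probe, formed as for Fadd, was 1.94-fold higher in LPS. That bound leaves out the spread between arrays. The limma interval of the difference ran from 0.44 to 1.73 on the log2 scale.

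Of the other Bcl2 family genes 12 of 14 had a probe and 0 passed the criterion, beside 1 at an unadjusted p under 0.05 by limma, Bcl2a1, which was not measured above background. The largest differences among those measured on all arrays were 0.43 for Bcl2l10, -0.31 for Bnip3 and 0.21 for Bik, each with overlapping groups. Bcl2l10 read -1.66, -0.30 and -0.56 on LPS arrays 1 to 3 and -1.41, -1.54 and -0.85 on saline arrays 1 to 3. Like the summed signal of the oocyte markers it was lowest on LPS array 1 and highest on LPS array 2. Single oocyte markers did not all follow that order, Kit for example being lowest on saline array 2. The part of the oocyte content in the values of Bcl2l10 was not tested.

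Of 10 upstream regulators with a probe 0 passed the criterion, beside 1 at an unadjusted p under 0.05 by limma, Atm, which was not measured above background. Gadd45a, induced by DNA damage, differed by 0.39 with overlapping groups and by -0.0065 without saline arrays 2 and 3, and the checkpoint kinase gene Chek2 by 0.28 with all LPS arrays above all saline arrays, which fell to 0.074 with no background correction. The brightest probe of Tp63 differed by -0.19 and its other probe by 0.31. Actb, the reference gene of the study, differed by -0.03, a sign that changed with the background correction and the normalization, and by -0.29 without saline arrays 2 and 3.

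**Figure D4:**
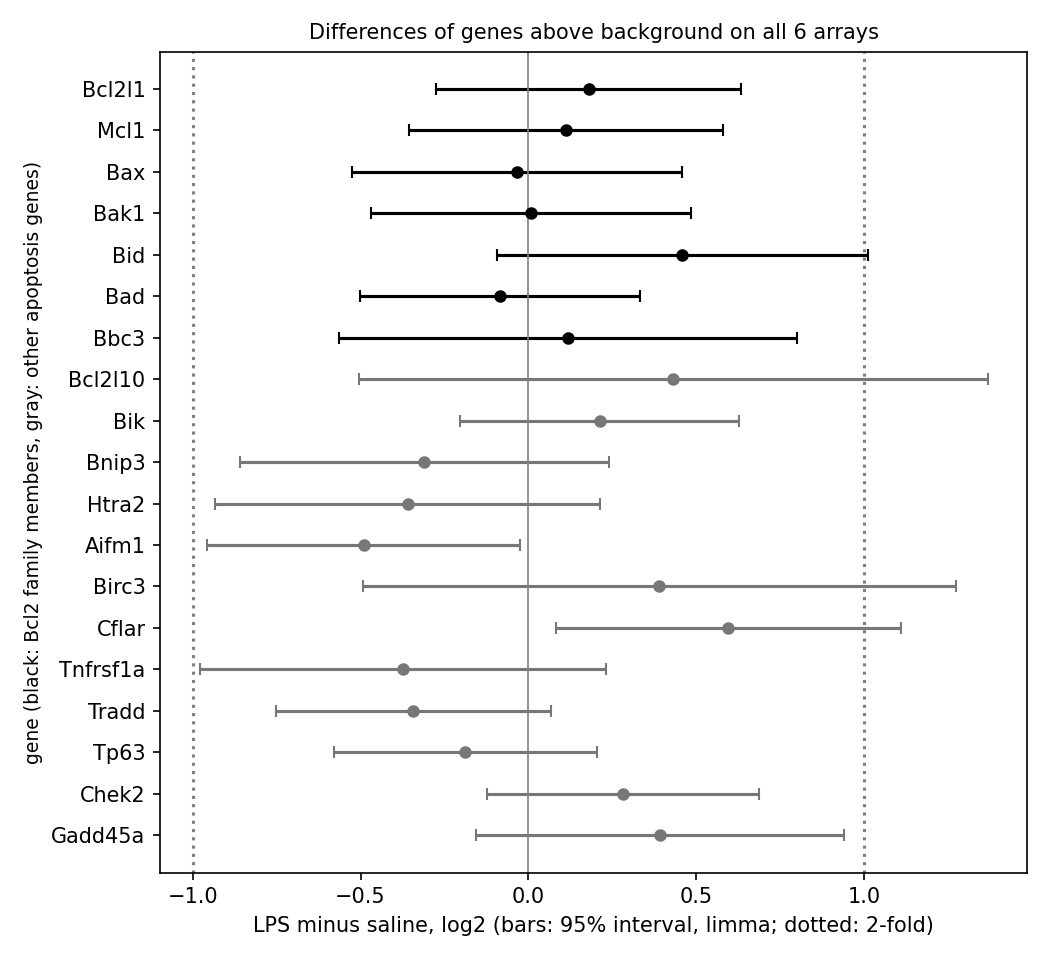
LPS minus saline on the log2 scale with the 95% interval from limma, for the 7 measured Bcl2 family members (black) and 12 named apoptosis pathway genes (gray), each well above background on the 6 arrays. Dotted lines mark 2-fold, and all points lie between them, from -0.49 for Aifm1 to 0.60 for Cflar.

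All 10 macrophage markers had a probe, with Aif1 as the brightest, and their summed signal was 12.2, 11.9 and 11.7 on LPS arrays 1 to 3 and 11.2, 11.0 and 9.54 on saline arrays 1 to 3. The sums of LPS arrays were all above those of saline arrays. Of the 10 genes 1, Mrc1, named after its value was seen, passed the 2-fold criterion as higher in LPS, beside 0.539% of all genes, and for 3 of the 10 the difference was negative. An unadjusted p under 0.05 by limma was reached by 3 of the 10, beside 15.9% of all genes. That share was 4.06% for genes measured on every array and 48.9% for genes measured on none, of which this list held 0. Among the 8 well above background on all arrays, the groups were separate with LPS higher in 2, beside 5.3% of such genes. The count past the criterion was 0 without LPS array 3 or without saline array 1. Among other alternatives, it was also 0 with normexp, with no background correction, with quantile normalization and with the test on each probe's own spread. The 3 red blood cell markers with a probe, led by Hbb, summed to 38.5, 28.2 and 24.2 in LPS and 40.4, 53.0 and 37.4 in saline. LPS minus saline was negative for 3 of these 3, with a median of -0.85. The median was -0.50 without saline array 2 and -0.45 without saline arrays 2 and 3. In 2 of the 3 all LPS arrays were below all saline arrays, beside 5.88% of genes well above background on all arrays. Slc4a1, also named after its value was seen, passed the criterion as lower at -1.17, beside 1.03% of all genes, but 0 did without LPS array 2, LPS array 3 or saline array 2. Among other alternatives, 0 also did with no background correction, with no normalization and with the test on each probe's own spread. The part of macrophages and red blood cells in the values of Bid, Cflar and Bcl2l1 was not tested.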

How the data were processed

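The authors deposited, for each of the 6 arrays, spot intensities with flags written by Agilent Feature Extraction 10.5.1.1, and a table whose intensities equal the processed signal within 0.497%. In these values the background is already removed, and spots too dim to measure carry a substitute value. The labels name a biotin label, while the methods describe Cy3. The methods give thresholds of fold and p for the arrays, while their general section names analyses of variance.

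Non-control spots flagged as non-uniform or population outliers were removed, log2 processed signals of a probe were averaged, and the 75th percentile of the array was subtracted. limma 3.58.1 in R 4.3.3 compared LPS with saline over 30367 probes, with Benjamini-Hochberg adjustment over all of them, and an equal-variance test on each probe's own spread was an alternative. Gene names are empty in the files, so probes were named by RefSeq transcript through a GRCr8 table, used for names only, which named 17998 probes. Counts used the brightest probe of a gene. A probe was well above background on an array when at least 0.5 of its spots were. The procedure was tested on simulated data.

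Members and lists were chosen with earlier results of these data known. Named genes are all members, Actb and, of each pathway list, those past the criterion and the 3 with the largest absolute difference among genes measured on all arrays. Arrays were grouped by the labels. Arrays that share a number departed in the same direction from the mean of their group (r over probes of 0.298, 0.215 and 0.254), and the pairing is taken from this alone. In all 20 alternatives were tried.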

Additional observations from a re-analysis of the deposited data

How the results depend on the processing

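The count of members past the 2-fold criterion was 0 under all 20 alternatives. All-gene counts, 145 higher and 277 lower in LPS, moved by more than 1.5 times under several. With normexp 1 gene was higher and with no background correction 0 were. Quantile normalization gave 95 higher and 152 lower, and no normalization between arrays gave 803 higher. Restricting to probes above background on at least 3 arrays gave 93 and 171, a test on each probe's own spread 80 and 38, slide row as a block 1293 and 59, the shared slide row 1317 and 47, and the set without saline arrays 2 and 3 gave 389 and 436. The share of calls that were higher was 34.4%, and 80.6% with no normalization between arrays, which added 0.38 to the median of all genes and to each difference of a single gene named. Bax minus Bcl2, Bax minus Bcl2l1 and Bax minus Mcl1 did not move with it. Leaving out single arrays gave 103 to 312 higher and 67 to 659 lower. The cause of these movements was not tested.

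Members with separate groups, 2 in the main values and both below background, numbered 0 with normexp, with no background correction and with the filter on dim probes, which removes them. All genes had separate groups in 22.9% of cases, and in 12.1%, 7.55% and 11.3% under these settings. Members numbered 1 with quantile normalization (all genes 10.6%) and with no normalization (13.5%), 2 to 4 without single arrays (26.0% to 42.8%), and 6 where a group has 1 array, in the shared slide row (61.8%) and without saline arrays 2 and 3 (54.9%). The median over the members, -0.01, was 0.36 with no normalization, 0.11 with the filter on dim probes and -0.14 without saline arrays 2 and 3. Bax minus Bcl2 was -0.0098 with normexp, 0.038 with no background correction, -0.059 with quantile normalization and 0.15 with slide row as a block or within the shared row, and had no value with the filter on dim probes. The pathway count of 1 became 0 with normexp, no background correction, quantile normalization and the test on each probe's own spread, and 0 to 1 without single arrays. The bound for Fadd, 1.37-fold, was 1.05-fold with normexp and 1.77-fold with no normalization, and none could be given with no background correction.

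No difference followed over the alternatives had passed the 2-fold criterion, so the turns of sign given below do not bear on calls past that criterion. The dimmer Apaf1 probe and Mrc1, which had passed it, were not followed singly, and Fadd was followed through its bound only. With no normalization, which added the shift of all genes to each, the values whose sign turned from negative were 0.34 for Bax, 0.29 for Bad, 0.0014 for Tnfrsf1a, 0.033 for Tradd, 0.016 for Htra2, 0.065 for Bnip3, 0.19 for Tp63 and 0.35 for Actb. With slide row as a block, and within the shared row, they were -0.007 for Mcl1, -0.16 for Bak1, 0.024 for Bad, 0.15 for Tnfrsf1a, -0.37 for Birc3, -0.39 for Bcl2l10, 0.080 for Bnip3 and 0.078 for Actb. Without saline arrays 2 and 3 they were -0.11 for Bcl2l1 (-0.040 for A_64_P008047 and -0.44 for A_64_P054730), 0.049 for Bax, -0.23 for Bbc3, 0.11 for Htra2 and -0.0065 for Gadd45a. With normexp they were 0.022 for Bad, 0.0092 for Actb and -0.058 for A_64_P054730, and with no background correction 0.026, 0.020 and -0.069. Actb was 0.13 with quantile normalization, and Tp63 was 0.059 as the mean of its probes. Without single arrays the ranges that crossed 0 were -0.035 to 0.22 for Mcl1, -0.12 to 0.10 for Bax, -0.16 to 0.10 for Bak1, -0.17 to 0.012 for Bad, -0.12 to 0.29 for Bbc3, -0.17 to 0.11 for Actb and -0.25 to 0.47 for A_64_P054730. Other ranges that moved over 1.5 times from the value were 0.31 to 0.72 for Bax minus Bcl2, 0.066 to 0.32 for Bcl2l1 (0.088 to 0.29 for A_64_P008047), 0.28 to 0.60 for Bid, -0.63 to -0.23 for Tnfrsf1a, 0.17 to 0.77 for Birc3, -0.60 to -0.20 for Htra2, 0.16 to 0.84 for Bcl2l10, -0.50 to -0.19 for Bnip3 and 0.28 to 0.59 for Gadd45a. Of 20 alternatives the unadjusted p by limma or the test on each probe's own spread was under 0.05 in 13 for Cflar, 11 for Aifm1, 3 for Gadd45a, 2 each for Bid and Tradd, and 1 each for Tnfrsf1a, Birc3, Htra2, Bcl2l10 and Bnip3. It was under 0.05 in 0 for the brightest probes of Bcl2l1, Mcl1, Bax, Bak1, Bad, Bbc3, Bik, Chek2, Tp63 and Actb. Apaf1, Mrc1 and Slc4a1 were not counted in this way. With no background correction differences over 1.5 times smaller were 0.053 for Bid, 0.054 for Mcl1, 0.072 for Bbc3, 0.23 for Cflar, 0.10 for Birc3, 0.074 for Chek2, -0.12 for Tp63 and 0.12 for A_44_P548065 and A_64_P008047. With normexp they were 0.13 for Bid, 0.35 for Cflar, 0.17 for Birc3, 0.13 for Chek2 and 0.21 for A_44_P548065. Slide row as a block, and the shared row, moved further values over 1.5 times without a turn of sign. These became 0.51 for Bbc3, 0.86 for A_64_P054730, -0.019 for Tp63, 0.35 for Bik, 0.61 for Gadd45a and -0.28 for Bax minus Mcl1.

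With the replicate block, 196 genes were higher and 329 lower, 0 members and 1 pathway gene passed the 2-fold criterion. The unadjusted p of Cflar by limma was 0.0546, so that 6 pathway genes in place of 7 were under 0.05, and no other call reported for a member or pathway gene changed. Over the 20 alternatives this number ran from 1 to 10. Signal over background is the limit for Bcl2, Pmaip1 and Bcl2l11, which these arrays did not measure.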
